A study of Homo sapiens with 32 samples.

Results

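The 8 genes that code for the subunits of the human condensin complexes were followed through serum stimulation of RPE-1 cells. They were chosen by name, SMC2, SMC4, NCAPD2, NCAPG, NCAPH, NCAPD3, NCAPG2 and NCAPH2. None was left out for its values, but the choice was made with earlier results of these data known. All 8 were found among the 19023 genes of the deposited count table. Condensins are ring-shaped ATPases that fold chromatin into loops and so compact and separate the chromosomes for mitosis. Both complexes share the ATPase pair of SMC2 and SMC4. Condensin I adds the kleisin NCAPH, which closes the ring, and the HEAT-repeat subunits NCAPD2 and NCAPG, while condensin II adds the kleisin NCAPH2 and the HEAT-repeat subunits NCAPD3 and NCAPG2. In dividing cells condensin II is held in the nucleus during interphase and acts from prophase, whereas most condensin I reaches the chromosomes once the nuclear envelope has broken down.

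RPE-1 is an immortalised human line derived from retinal pigment epithelium. All cells were serum starved for 18 h, and libraries were made at 0 h, before serum was returned, and at 5 h, 10 h and 15 h after serum stimulation, with 4 biological replicates at each time. Ribosome-protected footprints (Ribo-seq), which count ribosomes on coding sequence, and RNA-seq were each measured in 16 libraries. No untreated cells and no cells starved for the longer times were analysed here, so the effect of serum and that of time in culture cannot be told apart. In these bulk libraries more cells expressing a gene and more RNA per cell cannot be told apart either.

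The libraries held 2851423 to 9901322 counts in footprints and 595851 to 1107470 counts in RNA. Levels below are RPKM, counts scaled by counted length and by TMM-adjusted library size within an assay, so a level is a share of its library and not an absolute amount. Among 9 markers of retinal pigment epithelium, the transcription factors MITF and OTX2 were detected at a mean of 44.2 and 18.1 CPM in footprints, while the visual cycle enzyme RPE65 had 7 counts over all 16 footprint libraries, TYR had 2 and DCT had 0. The summed footprint level of those 9 markers was 101 to 121 CPM at 0 h, 35.1 to 37.6 CPM at 5 h, 68.8 to 77.9 CPM at 10 h and 57.7 to 64.5 CPM at 15 h, and its part in the results below was not tested. Of 6 blood cell markers, CD68, a lysosomal protein, had 10329 footprint counts and the other 5 had 0 to 18.

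The ATPase subunits are coded by SMC2 (ENSG00000136824), at chr9:104088263-104141419, and SMC4 (ENSG00000113810), at chr3:160399650-160434953. All positions are those of the whole gene in RefSeq on GRCh38.p14. The condensin I genes are NCAPD2 (ENSG00000010292), at chr12:6494102-6531955, NCAPG (ENSG00000109805), at chr4:17810979-17844865, and NCAPH (ENSG00000121152), at chr2:96335766-96377091. The condensin II genes are NCAPD3 (ENSG00000151503), at chr11:134150113-134225461, NCAPG2 (ENSG00000146918), at chr7:158631169-158704804, and NCAPH2 (ENSG00000025770), at chr22:50508224-50524780. The spans of NCAPG, NCAPD3 and NCAPH2 overlap those of other protein-coding genes, LCORL for NCAPG, JAM3 and VPS26B for NCAPD3, and SCO2 for NCAPH2. The strand setting of the counting is not given in the sources used here, so reads from overlapping genes on the other strand cannot be told apart.

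The 250 bases before the transcription start are shown for NCAPD2 and NCAPD3, the members with the least alike footprint courses, and for NCAPH, whose footprints had the largest rise. They come from RefSeq on GRCh38.p14, are written in the gene's direction, and end at the base before the start. Capitals mark the motifs searched on both strands, the CCAAT box (CCAAT, or ATTGG on the other strand), the cell cycle homology element (TTTGAA, or TTCAAA) and 4 spellings of an E2F site (TTTGGCGC, TTTCGCGC, TTTCCCGC and TTTGCCGC, or their reverse complements).
NCAPD2, chr12:6493852-6494101, plus strand: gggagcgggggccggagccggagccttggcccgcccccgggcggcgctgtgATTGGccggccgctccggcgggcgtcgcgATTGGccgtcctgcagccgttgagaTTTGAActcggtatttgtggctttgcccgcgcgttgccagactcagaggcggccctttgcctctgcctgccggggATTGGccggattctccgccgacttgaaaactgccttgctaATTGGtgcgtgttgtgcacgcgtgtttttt
NCAPH, chr2:96335516-96335765, plus strand: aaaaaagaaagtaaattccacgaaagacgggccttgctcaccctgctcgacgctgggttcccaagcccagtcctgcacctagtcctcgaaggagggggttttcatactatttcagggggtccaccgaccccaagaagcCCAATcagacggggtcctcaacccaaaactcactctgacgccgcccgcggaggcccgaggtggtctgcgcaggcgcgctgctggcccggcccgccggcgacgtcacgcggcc
NCAPD3, second listed start, chr11:134223968-134224217, minus strand: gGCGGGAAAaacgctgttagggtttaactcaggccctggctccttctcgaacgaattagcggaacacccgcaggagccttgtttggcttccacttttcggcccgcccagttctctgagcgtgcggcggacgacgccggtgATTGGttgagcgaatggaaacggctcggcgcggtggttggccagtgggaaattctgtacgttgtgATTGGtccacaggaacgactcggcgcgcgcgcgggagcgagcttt

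The NCAPD2 promoter held 4 CCAAT boxes, all read on the other strand, and 1 cell cycle homology element. That of NCAPH held 1 CCAAT box, and that of NCAPD3 held 2 CCAAT boxes and 1 E2F spelling, while the window of the other listed NCAPD3 start held none of these letters. Among the members not shown, 1 cell cycle homology element lay before the first listed start of SMC4 and 1 before that of NCAPG, and SMC2 and NCAPG2 held none. Of the 8 members 7 were matched to a promoter entry, all but NCAPH2. SMC2, SMC4 and NCAPD3 have 2 listed starts each, the start used in RPE-1 cells is not known from these data, and the NCAPD3 window shown was chosen because it holds motifs. In all 35116 RefSeq promoter windows of this length, the CCAAT letters occur in 32%, the cell cycle homology element in 13.3% and an E2F spelling in 2.79%. These are matches of letters in a window and no measure of binding.

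Footprints of all 8 condensin genes were highest at 15 h, and those of 6 were lowest at 5 h. A gene was called changed where edgeR's quasi-likelihood test gave a Benjamini-Hochberg adjusted p under 0.05 over all genes tested, and all 8 members were tested in each assay. At 5 h against 0 h, 6 of 8 members fell in footprints and 0 rose, where 40.5% of all 10959 genes tested fell and 35.2% rose. At 10 h against 0 h, 7 members rose and 1, NCAPD2, fell, where 39.4% of genes rose and 39% fell. At 15 h against 0 h all 8 rose, where 40.1% of genes rose and 39.6% fell. At 10 h against 5 h all 8 rose, where 31% of genes rose and 30.7% fell, and at 15 h against 10 h all 8 rose, where 20.8% rose and 20.2% fell. The members' median log2 change in footprints was -1.46 at 5 h, 1.59 at 10 h and 2.49 at 15 h against 0 h, and the median over all genes tested was -0.07, -0.02 and -0.01.

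**Figure D1:**
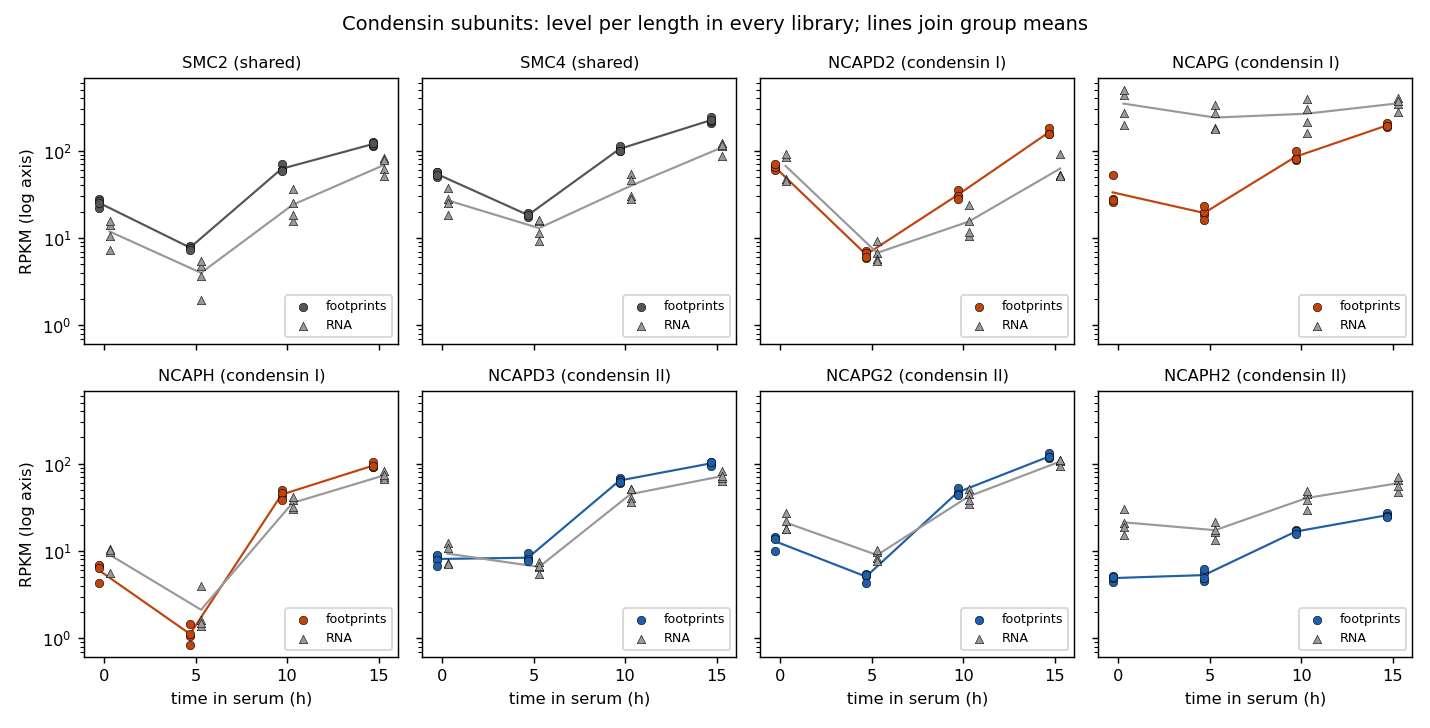
Level of each condensin gene in RPKM (log scale) in every library at 0, 5, 10 and 15 h after serum, footprints and RNA, with lines through the group means of 4 libraries. Footprint points of NCAPD3 and NCAPH2 at 5 h overlap those at 0 h, while NCAPG RNA stays between 158 and 489 RPKM in all libraries.

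SMC2, the ATPase partner of SMC4, had footprint levels of 27.9, 22.2, 26.5 and 25.3 RPKM at 0 h and 7.99, 8.15, 7.69 and 7.21 RPKM at 5 h. It had 59.8, 69.8, 60.8 and 57.8 RPKM at 10 h and 113, 127, 116 and 121 RPKM at 15 h. Every 5 h library lay below every 0 h library, and every 10 h and 15 h library lay above them. The log2 change was -1.71 ± 0.08 at 5 h and 2.23 ± 0.06 at 15 h against 0 h (SE, n = 4 per time, edgeR adjusted p = 4.18e-22 and 3.04e-29). SMC4 had 57.2, 49.7, 57 and 53 RPKM at 0 h, 18.2, 19.2, 17.5 and 18.4 RPKM at 5 h, 106, 114, 100 and 98.5 RPKM at 10 h, and 208, 245, 217 and 225 RPKM at 15 h. Its groups did not overlap between any of these times, and its course was close to that of SMC2 in the same libraries (r = 0.997 over 16 footprint libraries, which share the time course). Footprint levels of SMC4 fell by 1.56 ± 0.06 on the log2 scale at 5 h and were 2.05 ± 0.06 higher at 15 h than at 0 h.

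RNA of the ATPase pair took the same order of times. SMC2 RNA averaged 11.9 ± 3.71, 3.99 ± 1.56, 24 ± 9.22 and 68.6 ± 14.6 RPKM at 0, 5, 10 and 15 h (SD, n = 4 each). SMC4 RNA averaged 27 ± 7.72, 13 ± 3.25, 39.5 ± 12.5 and 109 ± 15.6 RPKM at the same times. Both fell at 5 h, by 1.5 ± 0.34 and 1.05 ± 0.25 on the log2 scale, and both were higher at 15 h than at 0 h, by 2.53 ± 0.26 and 2.02 ± 0.22. The rise of SMC4 RNA at 10 h against 0 h (0.56 ± 0.22, edgeR adjusted p = 0.0477) lay at the threshold, its groups overlapped, and it lost its call with DESeq2 (adjusted p = 0.0512), with only the compared groups fitted (0.0762), and when replicate 1, 2 or 3 at 0 h or replicate 1 or 4 at 10 h was left out (0.0665 to 0.13).

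NCAPD2, a HEAT-repeat subunit of condensin I, had the deepest fall of the 8 at 5 h and was the member still below its starting level at 10 h. Its footprint levels were 65.9, 60.6, 64.5 and 70.6 RPKM at 0 h and 7.19, 5.95, 6.69 and 6.02 RPKM at 5 h. They were 30.4, 35.5, 30.5 and 28.1 RPKM at 10 h and 161, 181, 156 and 155 RPKM at 15 h. The 4 groups did not overlap, with the 5 h libraries lowest, then 10 h, then 0 h, then 15 h. The fall at 5 h was 10.1-fold (log2 change -3.34 ± 0.08, edgeR adjusted p = 5.59e-31), and the level at 10 h was 2.10-fold below that at 0 h (-1.07 ± 0.06). Between 10 h and 15 h NCAPD2 rose 5.24-fold (2.39 ± 0.06), at percentile 99.7 of all genes tested in footprints.

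NCAPD2 RNA had 47, 84.8, 90.5 and 45.4 RPKM at 0 h, 6.66, 9.19, 5.68 and 5.48 RPKM at 5 h, 10.6, 23.6, 11.7 and 15.6 RPKM at 10 h, and 53, 92.6, 52.3 and 51.8 RPKM at 15 h. The 15 h libraries overlapped those at 0 h, and no change was called between them (-0.10 ± 0.26, edgeR adjusted p = 0.769). Its RNA fell by 3.30 ± 0.32 at 5 h and by 2.10 ± 0.28 at 10 h on the log2 scale against 0 h. The RNA rise at 10 h against 5 h (1.19 ± 0.33, adjusted p = 0.0138) was not called without replicate 2 at 10 h (0.96 ± 0.33, adjusted p = 0.0523).

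NCAPH, the kleisin of condensin I, went lowest in level and then rose most. Its footprint levels were 6.69, 4.32, 6.88 and 6.37 RPKM at 0 h, 1.46, 1.07, 0.846 and 1.11 RPKM at 5 h, 42.6, 50.2, 45.9 and 38.5 RPKM at 10 h, and 91.2, 104, 91.5 and 94.1 RPKM at 15 h. The groups did not overlap. The 5 h values rest on 13 to 24 counts per library. Footprints fell 5.36-fold at 5 h against 0 h (log2 change -2.42 ± 0.20) and rose 39.1-fold at 10 h against 5 h (5.29 ± 0.13, edgeR adjusted p = 2e-28). NCAPH RNA averaged 9.1 ± 2.37, 2.12 ± 1.24, 35.6 ± 5.27 and 73.5 ± 6.62 RPKM at 0, 5, 10 and 15 h (SD, n = 4 each), where the 5 h libraries held 3 to 5 counts each. The RNA change was -2.18 ± 0.34 at 5 h and 3.02 ± 0.21 at 15 h against 0 h on the log2 scale.

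NCAPG, the other HEAT-repeat subunit of condensin I, differed from the rest in RNA. Its RNA levels were 270, 195, 430 and 489 RPKM at 0 h, 330, 180, 269 and 178 RPKM at 5 h, 303, 158, 387 and 212 RPKM at 10 h, and 338, 279, 404 and 373 RPKM at 15 h. The groups overlapped in each RNA contrast and none of the 5 contrasts was called, with log2 changes from -0.53 ± 0.30 at 5 h against 0 h to 0.40 ± 0.29 at 15 h against 10 h. Without replicate 2 at 0 h the fall at 5 h was called (-0.79 ± 0.28, edgeR adjusted p = 0.0375). No other member exceeded 122 RPKM in any RNA library. In RNA, NCAPG had r of 0.114 to 0.354 with the other 7 members over 16 libraries, while the 21 pairs among those 7 had r of 0.387 to 0.967.

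In footprints NCAPG was called in all 5 contrasts. It had 53, 25.5, 27.6 and 27.2 RPKM at 0 h, 18.5, 19.8, 16.1 and 23 RPKM at 5 h, 82.8, 99.5, 77.9 and 81.2 RPKM at 10 h, and 210, 193, 188 and 189 RPKM at 15 h. Replicate 1 at 0 h stood above the other 3 libraries of its group. Footprints fell by 0.74 ± 0.21 on the log2 scale at 5 h (edgeR adjusted p = 0.00617), by 0.46 ± 0.10 without that library (adjusted p = 0.000239), and were 2.59 ± 0.19 higher at 15 h than at 0 h. The fall was not called with only the 5 h and 0 h libraries fitted (-0.69 ± 0.28, adjusted p = 0.0587). RefSeq lists pseudogenes of NCAPG, NCAPD2 and SMC4, and how reads shared with them or with LCORL were assigned is not given in the sources used here.

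NCAPD3, a HEAT-repeat subunit of condensin II, had no fall in footprints at 5 h that passed the test. Its footprint levels were 8.7, 9.11, 7.95 and 6.66 RPKM at 0 h, 8.34, 9.49, 8.03 and 7.7 RPKM at 5 h, 60.7, 68.6, 65.6 and 61.8 RPKM at 10 h, and 100, 105, 94.1 and 105 RPKM at 15 h. The 5 h libraries overlapped those at 0 h, and all 10 h and 15 h libraries lay above both. The log2 change was 0.06 ± 0.09 at 5 h (edgeR adjusted p = 0.552), 3.01 ± 0.08 at 10 h and 3.66 ± 0.07 at 15 h against 0 h. Its RNA averaged 9.34 ± 2.63 RPKM at 0 h, 6.58 (range 5.53 to 7.53) at 5 h, 44.9 ± 7.64 at 10 h and 72.1 ± 8.02 at 15 h (SD, n = 4 each). The RNA difference at 5 h (-0.51 ± 0.23, adjusted p = 0.092) was called when replicate 1 or replicate 4 at 0 h was left out (-0.68 ± 0.24 in both cases, adjusted p = 0.0356 and 0.032). The RNA rise at 15 h against 10 h (0.68 ± 0.16) was not called without replicate 3 at 10 h (0.60 ± 0.17, adjusted p = 0.0531).

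NCAPH2, the kleisin of condensin II, had the lowest footprint level of the 8 at 0 h, 10 h and 15 h. Its footprint levels were 5.22, 4.47, 4.91 and 4.99 RPKM at 0 h, 5.55, 4.52, 6.17 and 4.98 RPKM at 5 h, 17.3, 16.8, 17.2 and 15.6 RPKM at 10 h, and 26.3, 26.9, 25.2 and 24.5 RPKM at 15 h. As for NCAPD3, the 5 h and 0 h libraries overlapped (log2 change 0.12 ± 0.13, edgeR adjusted p = 0.413), and the later libraries lay above them (1.78 ± 0.11 at 10 h and 2.39 ± 0.10 at 15 h). Its RNA averaged 21.3 ± 6.51, 17.3 ± 3.35, 40.4 ± 8.7 and 59.8 ± 10.1 RPKM at 0, 5, 10 and 15 h (SD, n = 4 each), and the RNA difference between 15 h and 10 h was not called (0.57 ± 0.20, adjusted p = 0.105).

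NCAPG2, the other HEAT-repeat subunit of condensin II, fell at 5 h as the ATPase genes did. Its footprint levels were 13.9, 9.89, 14.5 and 13.6 RPKM at 0 h, 5.24, 5.5, 4.34 and 5.3 RPKM at 5 h, 45.8, 53.3, 44.7 and 44.4 RPKM at 10 h, and 115, 133, 118 and 118 RPKM at 15 h. The groups did not overlap. The footprint log2 change was -1.36 ± 0.11 at 5 h and 3.22 ± 0.08 at 15 h against 0 h (edgeR adjusted p = 3.78e-12 and 9.38e-25). In RNA it was -1.24 ± 0.19 and 2.32 ± 0.16, and RNA levels averaged 21.2 ± 4.38, 9 ± 1.2, 42.2 ± 7.22 and 106 ± 7.18 RPKM at 0, 5, 10 and 15 h (SD, n = 4 each).

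RNA gave fewer calls among the members than the deeper footprint libraries did in each of the 5 contrasts. At 5 h against 0 h 5 members fell and 0 rose, where 16.7% of the 8775 genes tested fell and 19.2% rose. At 10 h against 0 h 6 rose and 1 fell, where 23.3% of genes rose and 21.5% fell, and at 15 h against 0 h 6 rose and 0 fell, where 25.4% of genes rose and 25.4% fell. At 10 h against 5 h 7 members rose, where 10.1% of genes rose and 9.56% fell, and at 15 h against 10 h 6 rose, where 3.81% rose and 2.11% fell.

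**Figure D2:**
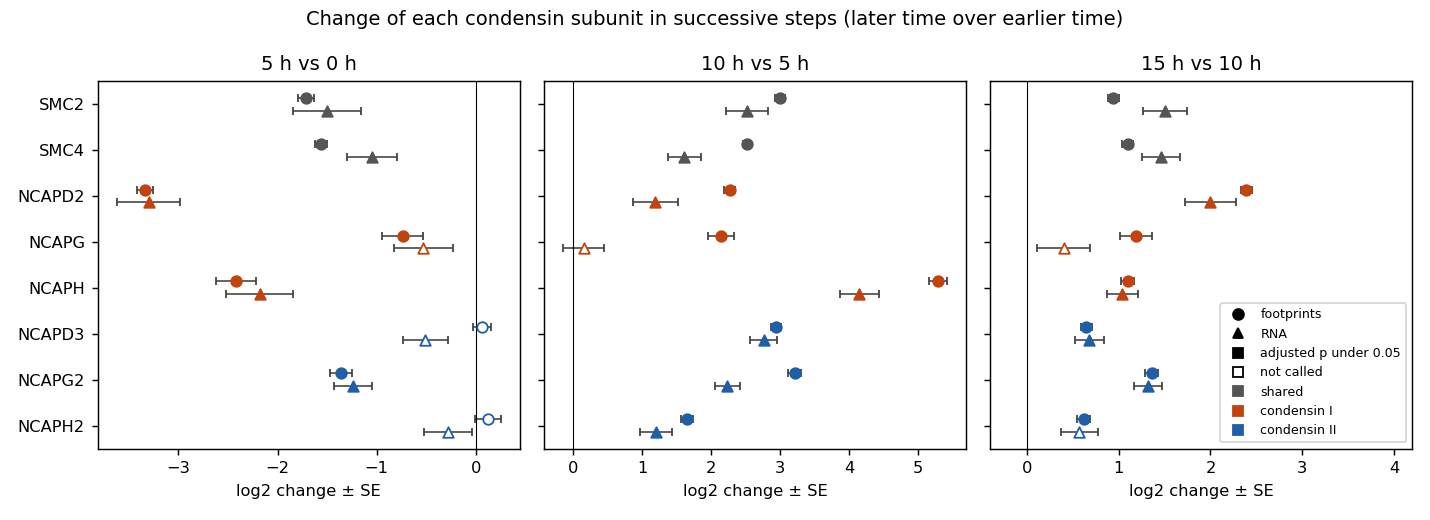
Log2 change ± SE of each condensin gene in footprints (circles) and RNA (triangles) in each step from one time to the next, the later over the earlier, with filled points for edgeR adjusted p under 0.05 and open points for the rest. In these steps NCAPD2 footprints are at -3.34, 2.27 and 2.39, NCAPH footprints at -2.42, 5.29 and 1.1, and NCAPD3 footprints at 0.06, 2.94 and 0.65.

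By footprint level per length at 15 h, SMC4 was highest at 224 ± 15.9 RPKM, followed by NCAPG at 195 ± 10, NCAPD2 at 163 ± 12, NCAPG2 at 121 ± 7.98, SMC2 at 119 ± 5.96, NCAPD3 at 101 ± 5.11, NCAPH at 95.1 ± 5.85 and NCAPH2 at 25.7 ± 1.09 (SD, n = 4 each). Among neighbours in this order the ranges over libraries overlapped for SMC4 and NCAPG, for NCAPG2 and SMC2, and for NCAPD3 and NCAPH. At 0 h the order was NCAPD2 at 65.4 ± 4.12 RPKM, SMC4 at 54.2 ± 3.56, NCAPG at 33.3 ± 13.1, SMC2 at 25.5 ± 2.42, NCAPG2 at 13 ± 2.1, NCAPD3 at 8.11 ± 1.08, NCAPH at 6.07 ± 1.19 and NCAPH2 at 4.9 ± 0.312. At 0 h the range of NCAPG overlapped those of SMC4 and SMC2, and that of NCAPH overlapped those of NCAPD3 and NCAPH2. At 5 h the level of NCAPH, 1.12 ± 0.254 RPKM, was the lowest, and SMC4 and NCAPG, at 18.3 ± 0.676 and 19.4 ± 2.89, were the highest and overlapped.

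The balance between the complexes was compared within each library as the log2 ratio of each condensin I subunit to its condensin II counterpart, per length. A total of 12 comparisons were made by exact two-sided permutation tests of 4 against 4 libraries, for which 0.0286 is the smallest possible p, and adjusted by Benjamini-Hochberg over the 12. The footprint ratio of NCAPD2 to NCAPD3 was -0.38 ± 0.21 at 5 h and 0.69 ± 0.10 at 15 h, against 3.02 ± 0.28 at 0 h (SD, n = 4 each). The differences of -3.39 and -2.33 each had exact permutation p = 0.0286, adjusted 0.0343, as did the RNA differences of -2.78 and -3.03. The labels give replicate numbers and do not say whether these mark pairs. Tested within replicate numbers, each difference among the 12 that had passed, in RNA or footprints, had an exact p of 0.125 by sign changes. That is the smallest p that 4 pairs can give. At 10 h, which was not tested, the 4 libraries had ratios of NCAPD2 to NCAPD3 from -1.14 to -0.95 in footprints and from -1.9 to -1.11 in RNA, all on the condensin II side of parity. The other pairs lay on the condensin I side in footprints at 10 h, NCAPH to NCAPH2 from 1.3 to 1.58 and NCAPG to NCAPG2 from 0.8 to 0.9. In RNA at 10 h NCAPH to NCAPH2 ran from -0.69 to 0.41 and NCAPG to NCAPG2 from 1.82 to 3.47.

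The kleisin ratio, NCAPH to NCAPH2, was -2.23 ± 0.41 at 5 h and 1.88 ± 0.07 at 15 h in footprints, against 0.28 ± 0.23 at 0 h. The differences from 0 h were -2.51 at 5 h and 1.60 at 15 h (exact permutation p = 0.0286, adjusted 0.0343, for both), with RNA differences of -1.78 and 1.51 (the same p). NCAPG to NCAPG2 was 1.91 ± 0.14 at 5 h and 0.69 ± 0.13 at 15 h in footprints, against 1.30 ± 0.46 at 0 h. The 5 h difference of 0.61 did not pass the test (exact permutation p = 0.114, adjusted 0.114) and the 15 h difference of -0.61 did (p = 0.0286, adjusted 0.0343). At 0 h the footprint ratio was 1.92 in replicate 1 and 0.93 to 1.37 in the others, beside 1.82 to 2.11 at 5 h. With 1 library left out in turn, NCAPG to NCAPG2 in footprints differed by 0.49 to 0.82 at 5 h and by -0.74 to -0.41 at 15 h, which was not tested. In RNA this pair differed by 0.72 at 5 h (p = 0.114 in the exact permutation test) and by -2.24 at 15 h (p = 0.0286, adjusted 0.0343).

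**Figure D3:**
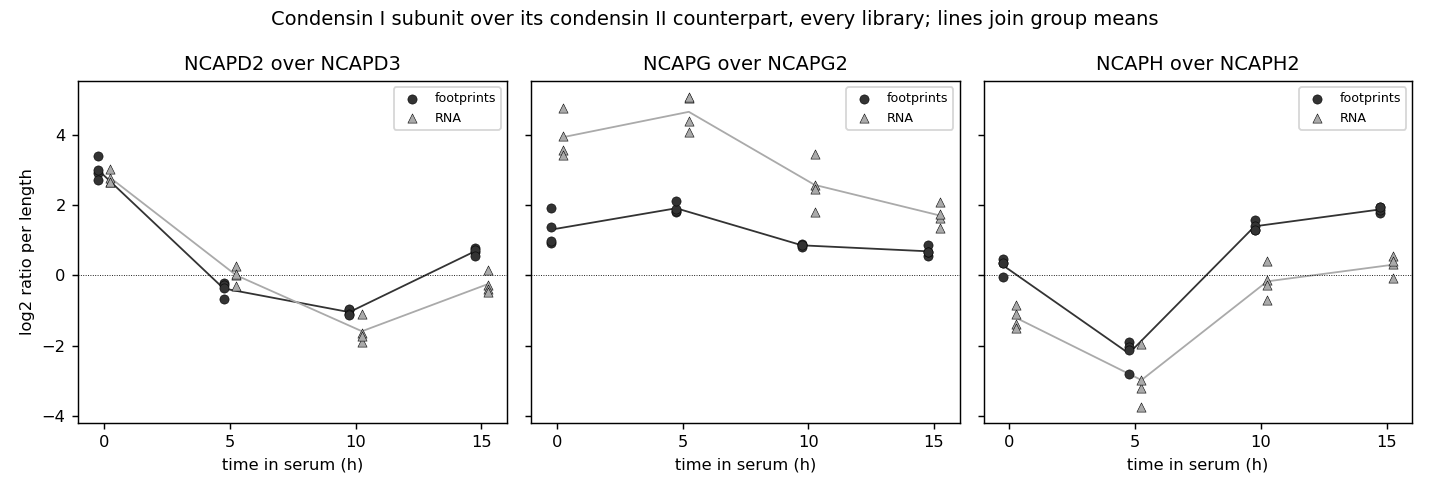
Log2 ratio per length of each condensin I subunit to its condensin II counterpart in every library by time, in footprints and RNA, where 0 is parity. The footprint ratio of NCAPD2 to NCAPD3 averages -0.38 at 5 h, against 3.02 at 0 h, and that of NCAPH to NCAPH2 averages 1.88 at 15 h, against 0.28 at 0 h. Lines join the means of 4 libraries.

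As a mean over the 3 specific subunits, condensin I had 34.9 ± 4.99, 8.98 ± 0.886, 53.6 ± 5.55 and 151 ± 6.74 RPKM in footprints at 0, 5, 10 and 15 h. Condensin II had 8.67 ± 0.675, 6.26 ± 0.224, 42.6 ± 2.52 and 82.6 ± 3.93 RPKM at these times (SD, n = 4 each). The ratio of condensin I to condensin II was 4.02 ± 0.382, 1.44 ± 0.171, 1.25 ± 0.0583 and 1.83 ± 0.0585 in that order of times. With NCAPG and NCAPG2 left out, an alternative chosen after the NCAPG RNA values were seen, it was 5.54 ± 0.779, 0.555 ± 0.052, 0.931 ± 0.0589 and 2.04 ± 0.104. Condensin I then lay below condensin II at 5 h, and at 10 h the mean ratio was also below parity, with libraries from 0.86 to 1.

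Translational efficiency (TE), footprints per RNA, was tested as the interaction of assay and time in edgeR and rose for the specific subunits of both complexes. At 10 h against 0 h, 6 of 8 members rose and 0 fell, where 7.69% of the 8736 genes tested rose and 1.01% fell, and at 15 h against 0 h 6 rose and 0 fell, where 11.2% rose and 1.77% fell. In both contrasts these were the 3 subunits specific to condensin I and the 3 specific to condensin II. At 15 h against 0 h TE changed by 2.55 ± 0.39 for NCAPG, 1.42 ± 0.26 for NCAPD2, 0.93 ± 0.26 for NCAPH, 0.89 ± 0.18 for NCAPG2, 0.89 ± 0.23 for NCAPH2 and 0.72 ± 0.21 for NCAPD3 (SE, adjusted p from 2.5e-05 to 0.0159). SMC2 had -0.31 ± 0.25 and SMC4 had 0.03 ± 0.22 (adjusted p = 0.488 and 0.961), and the median over all genes tested was 0.10. The TE value of NCAPG divides by the RNA counts described above, for which the handling of reads shared with LCORL or with pseudogenes is not given in the sources used here, and the part of such reads in this value was not tested. Whether the ATPase genes differ in TE from the other subunits was not tested.

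**Figure D4:**
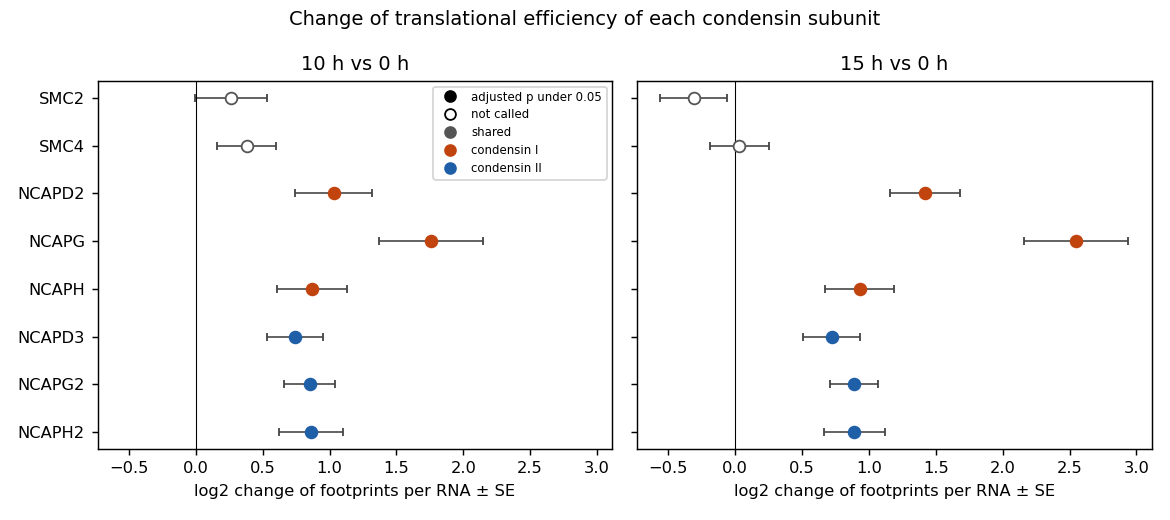
Change of translational efficiency (log2 footprints per RNA, ± SE) of each condensin gene at 10 h and 15 h against 0 h, with filled points for edgeR adjusted p under 0.05. The 6 specific subunits lie between 0.72 and 2.55, and SMC2 and SMC4 between -0.31 and 0.38 with open points.

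Some of these TE calls depended on 1 library. NCAPG and NCAPG2 at both times, and NCAPD2 at 15 h, kept their calls when any of the 16 libraries concerned was left out. Without RNA replicate 3 at 0 h the count of members called was 2 at 10 h and 3 at 15 h, and without RNA replicate 2 at 0 h, or replicate 1 or 3 at 10 h, it was 3 at 10 h. NCAPH at 10 h was also lost without RNA replicate 4 at 0 h or 10 h or footprint replicate 2 at 0 h, and NCAPD3 without footprint replicate 4 at 0 h (adjusted p = 0.0597 to 0.0829 for NCAPH and 0.0502 for NCAPD3). NCAPD3 at 15 h was lost without RNA replicate 2 at 0 h or replicate 1 or 4 at 15 h (0.0694 to 0.14). Without the filter on low counts NCAPD2 at 10 h and NCAPD3 at 15 h were not called (adjusted p = 0.0556 and 0.0508). With only the compared groups fitted, NCAPH and NCAPD3 at 10 h (0.0844 and 0.0733) and NCAPD3 at 15 h (0.0537) were not called. At 5 h against 0 h 0 members were called in TE, where 4.62% of genes rose and 1.77% fell, 2 members had an unadjusted p under 0.05, and DESeq2 called 0. At 10 h against 5 h NCAPG (1.99 ± 0.39) and NCAPG2 (0.96 ± 0.22, edgeR adjusted p = 0.0155) rose, where 0.721% of genes rose and 0.0343% fell. The NCAPG2 call was lost without RNA replicate 1 or 4 at 5 h (adjusted p = 0.0629 and 0.108). SMC4 had 0.90 ± 0.24 there (adjusted p = 0.0706), and DESeq2 called it (adjusted p = 0.00895). At 15 h against 10 h no gene was called in TE by edgeR (0 of 8736, with 542 at an unadjusted p under 0.05, 2 of them members), while DESeq2 called 2 genes, neither of them a member.

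As a level, log2 footprints over RNA was 1.1 for SMC2 and 1 for SMC4 at 0 h, at percentiles 90.4 and 89.1 of the genes tested. NCAPD2 was at 1.39 at 15 h and -0.03 at 0 h, percentiles 92.4 and 61.5. NCAPH2 was at -2.12, -1.71, -1.28 and -1.22 at 0, 5, 10 and 15 h, percentiles 6.89 to 16.1. NCAPG was at -3.38, -3.63, -1.64 and -0.84 at 0, 5, 10 and 15 h, percentiles 1.75, 0.79, 10 and 26.2, and its RNA level stood at percentile 90.3 to 94.2 throughout.

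Set beside genes of the cell cycle, the median footprint change of condensin was -1.46 at 5 h against 0 h and 1.1 at 15 h against 10 h, between those of a G1/S and a G2/M list. It lay below both lists at 10 h against 5 h, at 2.73 beside 3.43 for G1/S and 3.55 for G2/M, and at 15 h against 0 h, at 2.49 beside 3.38 and 2.52. Of 12 G1/S genes, which code for replication proteins such as the MCM helicase, 6 rose and 2 fell at 5 h against 0 h (median log2 change 0.27), and 2 rose and 6 fell at 15 h against 10 h (median -0.22). All 14 G2/M genes, which code for mitotic proteins such as CCNB1, fell at 5 h (median -2.60) and rose at 15 h against 10 h (median 1.74). Over all genes tested, 35.2% rose and 40.5% fell at 5 h, and 20.8% rose and 20.2% fell at 15 h against 10 h. NCAPD2, at -3.34 and 2.39, had values beyond both G2/M medians, and NCAPD3, at 0.06 and 0.65, and NCAPH2, at 0.12 and 0.62, lay between the medians of the lists. TE also rose in both lists. At 15 h against 0 h, 6 of 12 G1/S genes (median log2 change 0.91) and 9 of 14 G2/M genes (median 0.61) rose in TE, where 11.2% of all genes tested rose and 1.77% fell. The condensin members had a median of 0.89 there, with 6 of 8 rising, and 0 genes of either list fell. The part of cell cycle position in the members' changes was not tested.

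**Figure D5:**
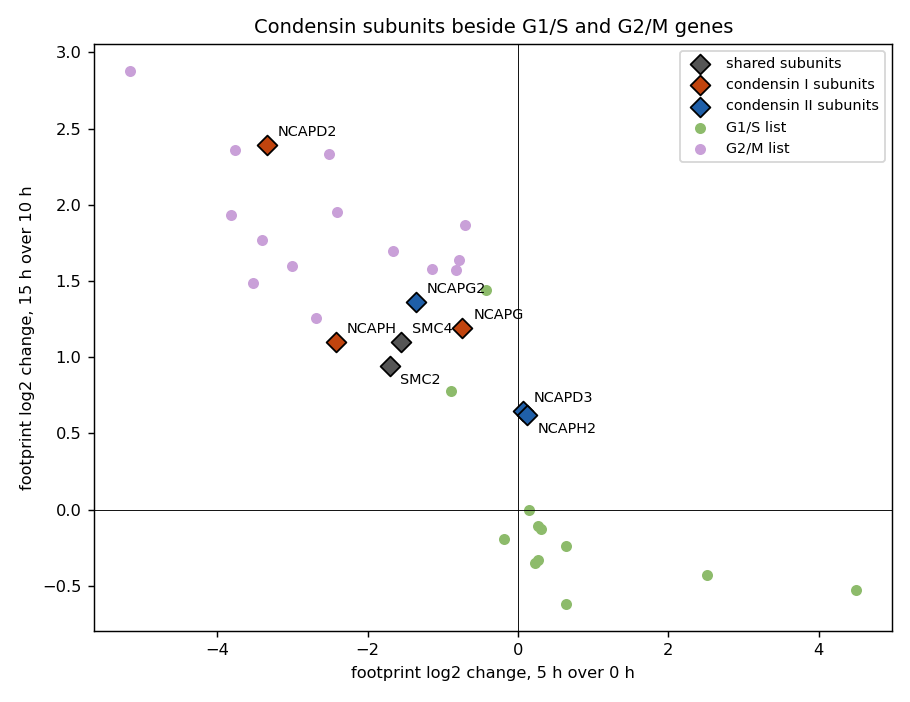
Footprint log2 change at 5 h against 0 h (x) and at 15 h against 10 h (y) of the 8 condensin genes, the 12 G1/S genes and the 14 G2/M genes. NCAPD2 lies at -3.34 and 2.39 among the G2/M genes, and NCAPD3 and NCAPH2 lie near 0 on x and at 0.65 and 0.62 on y.

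Of 13 genes listed as partners and regulators of condensin, 11 were tested, and PLK1 and M18BP1 were not analysed here. In footprints 4 rose and 6 fell at 5 h against 0 h (median log2 change -0.70), where 35.2% of all genes tested rose and 40.5% fell. All 11 rose at 15 h against 0 h (median 1.65), where 40.1% rose and 39.6% fell. CDK1, the kinase that phosphorylates condensin subunits in mitosis, changed by 4.97 ± 0.09 at 15 h against 0 h, and AURKB, the kinase of the chromosomal passenger complex, by 4.89 ± 0.12. TOP2A, which decatenates DNA, changed by 4.08 ± 0.16, MKI67, which coats mitotic chromosomes, by 4.05 ± 0.14, and KIF4A, a chromosome-bound kinesin, by 2.72 ± 0.07 (SE, n = 4 per time). MCPH1, which restrains condensin II in interphase, changed by 0.56 ± 0.09.

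Of 11 genes of the other SMC complexes, cohesin and the SMC5/6 complex, 10 were tested and STAG2 was not analysed here. Beside condensin medians of -1.46 and 2.49, in footprints 1 of these rose and 7 fell at 5 h against 0 h (median log2 change -0.31), and 8 rose and 2 fell at 15 h against 0 h (median 0.84). The shares over all genes tested were 35.2% rising and 40.5% falling at 5 h, and 40.1% and 39.6% at 15 h. At 15 h SMC2 changed by 2.23 ± 0.06 and SMC4 by 2.05 ± 0.06, against 1.99 ± 0.06 and 1.29 ± 0.06 for the cohesin ATPases SMC1A and SMC3. RAD21, the cohesin kleisin, changed by 0.92 ± 0.06. The difference between the complexes was not tested.

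The genes most like each member were those with the highest Pearson r of log2 CPM over the 16 footprint libraries, among 7974 genes with a mean of at least 10 CPM. All libraries share 1 time course, so the r values describe a shared course. SMC2 was closest to CCNA2 (cyclin A2), TMPO and KIF22 (r = 0.998 each), and SMC4 to the kinetochore gene NDC80 (r = 0.999), HMGB2 and KIF22. NCAPD2 was closest to PSIP1 (r = 0.992), DLGAP5 and KLHL13, NCAPG to TDP1 (r = 0.989), SAE1 and INCENP, and NCAPH to RPA1 (r = 0.997), GINS4 and NASP. For condensin II, NCAPG2 was closest to NUF2 (r = 0.999), CENPE and ECT2, NCAPD3 to TRIP13 (r = 0.996), CENPK and TRIM28, and NCAPH2 to SPIN4 (r = 0.996), TRIM28 and WBP11. Over the 16 RNA libraries the r of these pairs ran from 0.263 for NCAPG with INCENP to 0.977 for NCAPD3 with TRIP13. Between members, footprint r ran from 0.578 for NCAPD2 with NCAPD3 to 0.997 for SMC2 with SMC4, and NCAPD3 with NCAPH2 had r = 0.988.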

How the data were processed

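Per the submitters' processing notes, STAR 2.5.4a, featureCounts 1.5.1 and the build GRCh38 were used. The deposited table holds raw counts, whole numbers per gene and library; the annotation release, the strand setting and the treatment of reads shared between genes are not given in the sources used here. Counted lengths are a multiple of 3 in 96.46% of genes and are read as lengths of coding sequence, whole or in part. They were not compared with full coding lengths, and that of NCAPD3 is 3195 bases. Of the 19023 genes, 18905 were matched to a symbol, and 0 pairs of libraries were identical. RPKM was computed on TMM-scaled library sizes. Genes passing filterByExpr were tested with edgeR 4.0.16 (R 4.3.3), robust quasi-likelihood, time as the only factor, over the 16 libraries of an assay, and TE over all 32; the script was tested on simulated data. The SE of a change is its absolute log2 change over the square root of the quasi-likelihood F statistic. It rests on the spread over all fitted libraries and not on the compared groups alone. Alternatives were DESeq2 1.42.0, RLE factors, no filter, only the compared groups, a replicate block and each library left out. Deviations of same-numbered RNA libraries from their group means had r of 0.12 to 0.30 at 15 h and 0 h. The r ran from 0.03 to 0.46 at 10 h and 0 h, and from 0.04 to 0.52 at 15 h and 10 h. The members, the gene lists and the naming rule (all members, at most 5 genes of a list by size of change or set beside a member, and the 3 genes most like each member) were chosen with earlier results of these data known.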

Additional observations from a re-analysis of the deposited data

Results flagged for a closer look

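In 5 of 88 groups of 4 libraries, 1 library stood far from the other 3, with a gap to the nearest that took most of the group's range; chance flags about 1 in 20 groups, or 5%. NCAPD2 RNA at 15 h was 92.6 RPKM in replicate 2 and 51.8 to 53 in the others. Replicate 2 also had the highest NCAPD2 RNA at 5 h and 10 h, at 9.19 and 23.6 RPKM, but not at 0 h. NCAPG footprints at 0 h were 53 RPKM in replicate 1 and 25.5 to 27.6 in the others, and the footprint change at 5 h without that library is given with the NCAPG values. Without that library NCAPG footprints were higher than at 0 h by 1.68 ± 0.09 at 10 h and 2.86 ± 0.09 at 15 h on the log2 scale. Its TE changes were then 2.06 ± 0.36 at 10 h and 2.85 ± 0.36 at 15 h. NCAPG2 footprints in replicate 2 were 53.3 RPKM at 10 h, where the others had 44.4 to 45.8, and 133 RPKM at 15 h, where the others had 115 to 118. NCAPH RNA at 5 h was 3.98 RPKM in replicate 1 and 1.39 to 1.63 in the others, at 3 to 5 counts per library.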

How the results depend on the processing

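Under RLE factors all 120 member changes kept their side of the threshold, and under DESeq2 118 of 120 did. No member change that was called turned its direction under any alternative run. The direction of changes that were not called was not compared. With NCAPG and NCAPG2 left out, an alternative chosen after seeing the data, the ratio of condensin I to II was 5.54, 0.555, 0.931 and 2.04 in footprints at 0, 5, 10 and 15 h, and 2.45, 0.371, 0.602 and 1.03 in RNA, where with all subunits RNA had 8.30, 7.63, 2.53 and 2.04. The members called in TE ran from 2 to 6 at 10 h against 0 h, 3 to 6 at 15 h against 0 h and 1 to 3 at 10 h against 5 h with 1 library left out in turn. With the replicate number as a block 4 members were called in TE at 10 h against 5 h, where 2 were called without it. The calls of single members lost without the filter, with only the compared groups fitted or without 1 library are given beside their values, and the cause was not tested. With the replicate block the ratio differences that had passed the test could not pass it, since 4 pairs reach no p below 0.125: NCAPD2 to NCAPD3 kept -2.78 and -3.03 in RNA and -3.39 and -2.33 in footprints at 5 h and 15 h, NCAPH to NCAPH2 kept -1.78 and 1.51 in RNA and -2.51 and 1.60 in footprints, and NCAPG to NCAPG2 kept -2.24 in RNA and -0.61 in footprints at 15 h. With 1 library left out these differences were not tested and kept their sign. For RNA at 15 h and 0 h, same-numbered libraries had r of 0.12 to 0.30, and 2 of 4 were closest to their own number. The block changed no member call in that contrast. In the other contrasts the lowest r ran from -0.23 to 0.04. It was above 0 for RNA at 10 h against 0 h (0.03 to 0.46) and at 15 h against 10 h (0.04 to 0.52). It was also above 0 for footprints at 5 h against 0 h and at 15 h against 0 h (0.01 to 0.18 at 15 h). The labels give shared numbers only. For RNA at 15 h and 10 h the mean r between libraries of different number was -0.1. There 3 of 4 libraries were closest to their own number, and 2 of 4 in each of the other RNA contrasts. The footprint pairs at 5 h and 0 h had r of 0.03 to 0.10, beside a mean of -0.02 between different numbers, with each library closest to its own number. Both are hints of a link between same-numbered libraries, from the data and not from the design. The block also called NCAPH2 RNA at 15 h against 10 h (adjusted p = 0.00648). Over all genes, calls differed by more than 1.5 times for RNA at 15 h against 10 h (519, with 1170 under the block, split 629 higher and 541 lower where the fit without it gave 334 and 185, and 333 to 343 without replicate 3 at 10 h or replicate 1 or 4 at 15 h), TE at 5 h against 0 h (559, with 884 under DESeq2 and 1021 under the block), TE at 15 h against 0 h (1132, with 1701 under the block), TE at 10 h against 5 h (66, with 177 and 188) and TE at 15 h against 10 h (0, with 2, 1 without the filter and 6 under the block). RNA libraries were shallower than footprint libraries, and NCAPH at 5 h rests on 3 to 5 RNA counts per library.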
